A study of Mus musculus with 6 samples.

Results

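The genes described here build or regulate the cytoskeleton of neural cells. They are the stathmins Stmn1, Stmn2, Stmn3 and Stmn4, the intermediate filament genes Nes and Ina, the microtubule-associated genes Map2, Mapt and Dcx, and the beta-tubulin gene Tubb3. The 10 genes were taken by symbol from the authors' gene table of 36699 rows, and they were chosen by their FPKM values in the 2 groups, plus Dox against minus Dox. Of the 10, 8 matched a row by symbol and Map2 matched under its older symbol Mtap2, which gave 9 genes; Tubb3 was not analysed here. Because this comparison served to select them, its values are given for these genes as a description and support nothing beyond themselves.

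RNA was sequenced from mouse A2Lox.cre embryonic stem cells, a line with a doxycycline-responsive site for inducible transgenes, on day 3 of culture as embryoid bodies. The plus Dox group (3 libraries, replicates 1, 3 and 4) received doxycycline from day 2 for 24 hours to switch on a Flag-tagged Sp5 transgene; Sp5 is a transcription factor with zinc fingers that binds GC-rich DNA. The minus Dox group (3 libraries, replicates 2, 3 and 4) was the same line without the drug. The comparison asked which genes Sp5 regulates. All libraries came from 1 engineered line, grown on mouse embryonic fibroblasts that were stripped away before embryoid bodies formed. Effects of the drug and of the transgene cannot be told apart, since no doxycycline-treated line lacking the transgene was used here. The labels do not say whether replicates were separate cultures, so the p-values may measure only technical spread.

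Each gene has 1 FPKM value per group (fragments scaled to transcript length and to mapped fragments), into which the authors combined the 3 libraries; depth and values per library are unknown. A gene is said to have risen or fallen where q was under 0.05 in the authors' deposited table. Dividing a log2 difference by the deposited test statistic gave the standard error (SE) quoted below, taking that statistic as the log ratio over its standard error, as Cuffdiff defines it. Sp5 itself had 126 FPKM in plus Dox cells and 0.769 FPKM in minus Dox cells, in the direction the labels state; transgene and endogenous Sp5 are not separated in a gene-level value. In bulk RNA, fewer cells of a type and less RNA per cell cannot be told apart.

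Microtubules are hollow polymers of alpha- and beta-tubulin that grow and shrink at their ends. Stathmins bind free tubulin dimers and promote shrinkage, whereas MAP2, tau and doublecortin bind the polymer and stabilise it. Nestin and alpha-internexin form intermediate filaments, nestin in neural progenitors and alpha-internexin in young neurons. Nes is also used as a marker of the first neural cells that form when embryonic stem cells differentiate.

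Among the 8 tested genes, 2 fell (Stmn4 and Nes), 1 rose (Map2) and 5 were not called, while Dcx had no test. Over all 18537 tested rows, 23.2% were called, 12.7% lower and 10.5% higher. With a minimum of 2-fold, 5.76% of all rows were called (2.22% lower, 3.54% higher), with q under 0.01 17.1% (9.39% lower, 7.71% higher) and with q under 0.1 27% (14.9% lower, 12.1% higher). Of the 12326 tested rows reaching 1 FPKM in a group, 28.3% were called (16.8% lower, 11.5% higher). The median log2 difference of the 8 genes was -0.01, beside -0.03 over all tested rows. Of the 8, 7 reached 1 FPKM in at least 1 group. The called changes ran in both directions, with 1 of the 4 stathmins called, Nes but not Ina of the filament genes, and Map2 but not Mapt of the microtubule-associated genes.

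**Figure D1:**
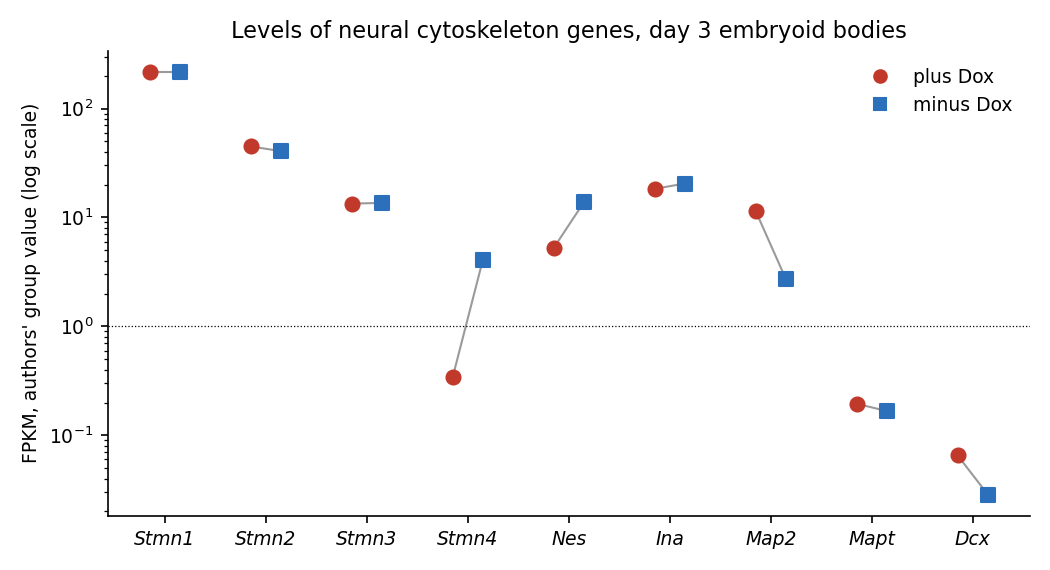
FPKM (log scale) of the 9 genes with a row, 1 authors' value per group, plus Dox as circles left of minus Dox as squares; the dotted line marks 1 FPKM. Stmn4 and Nes lie lower in plus Dox cells, Map2 higher, and Stmn1 has 217 FPKM in both groups.

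Stmn1, the stathmin of dividing cells and the founding member of its family, was the highest of the 9 genes. It stood at 217 FPKM in plus Dox cells and 217 FPKM in minus Dox cells, above 98% of all tested rows in plus Dox cells and 97.8% in minus Dox cells. The log2 difference was 0.00 ± 0.07 (SE), with a 95% interval from -0.13 to 0.14, which holds changes of up to 1.1-fold in either direction. The row (XLOC_022051) covers chromosome 4, positions 134024235 to 134029758 of mm9, and overlaps no other row.

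Stmn2, also known as SCG10, is a membrane-anchored stathmin of growing axons and a textbook target of the repressor REST. It had 44.9 FPKM in plus Dox cells and 40.6 FPKM in minus Dox cells (chromosome 3, 8509527 to 8561604), above 89.7% of tested rows in plus Dox cells and 88.1% in minus Dox cells. The log2 difference of 0.15 ± 0.08 (SE) was not called (q = 0.19 in the authors' deposited table), and its 95% interval ran from -0.01 to 0.30. Stmn3, a stathmin of neurons also called SCLIP, had 13.4 FPKM in plus Dox cells and 13.6 FPKM in minus Dox cells (chromosome 2, 181041164 to 181049205). Its log2 difference was -0.02 ± 0.11 (SE), with an interval from -0.24 to 0.20 (q = 0.962 in the authors' deposited table). Both neuronal stathmins lay above 10 FPKM in both groups, and neither passed the test.

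Stmn4, also called RB3, is the fourth stathmin, found mainly in the nervous system. It had 0.341 FPKM in plus Dox cells and 4.11 FPKM in minus Dox cells (XLOC_009544, chromosome 14, 66963133 to 66980517), a level 12-fold lower with doxycycline. The log2 difference was -3.59 ± 0.38 (SE), the interval on the fold ran from 7.14 to 20.3 and q was listed as 0 in the authors' deposited table. Its level lay above 22.7% of tested rows in plus Dox cells and above 53.4% in minus Dox cells. Among the 2071 called falls with 1 FPKM or more in a group, this fall ranked 3 by fold. No other row overlaps it.

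Summed over the family, stathmin RNA was 276 FPKM in plus Dox cells and 275 FPKM in minus Dox cells. Stmn1 gave 78.7% of that sum in plus Dox cells and 78.8% in minus Dox cells, while Stmn2 gave 16.3% in plus Dox cells and 14.7% in minus Dox cells. Stmn3 gave 4.86% in plus Dox cells and 4.94% in minus Dox cells. Stmn4 gave 0.124% in plus Dox cells and 1.49% in minus Dox cells. The stathmin that fell was therefore the scarcest of the family in both groups.

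Nes encodes nestin, the intermediate filament of neural progenitors. It had 5.24 FPKM in plus Dox cells and 13.8 FPKM in minus Dox cells (XLOC_019670, chromosome 3, 87775000 to 87784373), a 2.63-fold fall. The log2 difference was -1.39 ± 0.08 (SE), with an interval on the fold from 2.36 to 2.93, and q was listed as 0 in the authors' deposited table. By fold it ranked 81 of the same 2071 falls. The row stood alone at its locus.

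Ina encodes alpha-internexin, a filament protein of young neurons. It had 18.3 FPKM in plus Dox cells and 20.5 FPKM in minus Dox cells, a log2 difference of -0.16 ± 0.08 (SE). In the authors' deposited table p was 0.0423 and q was 0.141, so Ina was not called. Its row is listed over 138 kb (chromosome 19, 46961321 to 47099817), a span that it shares with Nt5c2 (18.6 FPKM in plus Dox cells and 16.2 FPKM in minus Dox cells). The protocol mentions no strand marking, so reads at any overlap of the pair may not be separable.

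Map2 encodes the microtubule-associated protein that marks dendrites of neurons. It had 11.5 FPKM in plus Dox cells and 2.72 FPKM in minus Dox cells (XLOC_000289, chromosome 1, 66221847 to 66489157), a 4.25-fold rise. The log2 difference was 2.09 ± 0.20 (SE), with an interval on the fold from 3.23 to 5.58, and q was listed as 0 in the authors' deposited table. It ranked 84 by fold among the 1414 called rises at 1 FPKM or more. Its locus holds 3 other rows, the small RNAs SNORA26 and U1 and the predicted gene Gm10558, none of them called. The table gives a gene-level value, so which Map2 transcripts carry the rise is unknown.

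Mapt, which encodes tau of axons, had 0.195 FPKM in plus Dox cells and 0.167 FPKM in minus Dox cells. Its interval on the log2 difference ran from -1.15 to 1.60, so at this level changes of 2-fold in either direction fell within the error. Dcx, which encodes doublecortin of migrating young neurons, had 0.0655 FPKM in plus Dox cells and 0.0286 FPKM in minus Dox cells and was not tested by the authors. These markers of later neurons were both near the bottom of the measured range, below 1 FPKM in both groups.

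**Figure D2:**
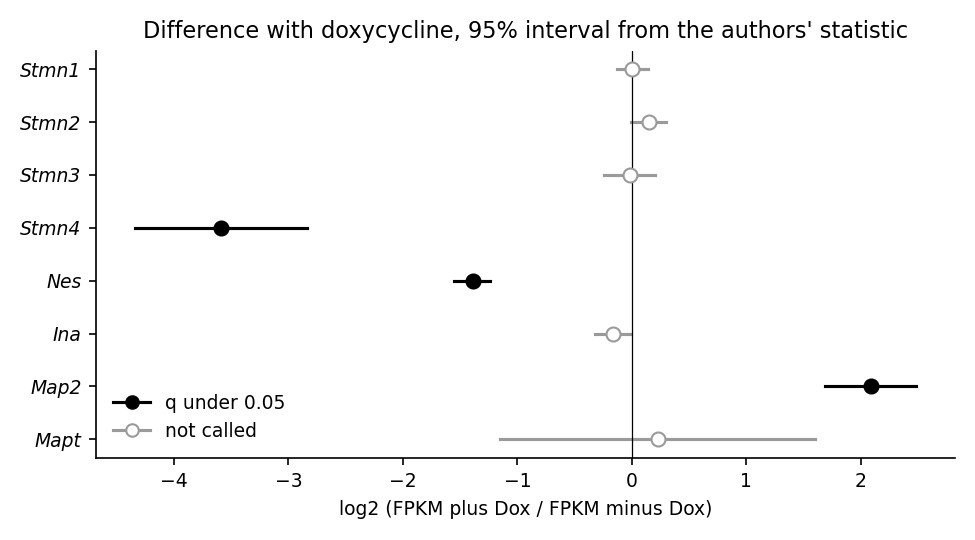
Log2 ratio of plus Dox over minus Dox FPKM for the 8 tested genes, with the 95% interval implied by the authors' statistic; filled points have q under 0.05. Stmn4 and Nes lie left of 0 and Map2 right of it, the intervals of Stmn1, Stmn2, Stmn3 and Mapt cross 0, and that of Ina ends at -0.01.

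In plus Dox cells the order of levels was Stmn1, Stmn2, Ina, Stmn3, Map2, Nes, Stmn4, Mapt and Dcx. In minus Dox cells it was Stmn1, Stmn2, Ina, Nes, Stmn3, Stmn4, Map2, Mapt and Dcx. The error of a single group's level is unknown. If the errors of the 2 groups are independent, that error cannot exceed the error of the difference between groups. This bound was set against the gaps between neighbours among the 8 tested genes. By it, Stmn3 and Map2 (a log2 gap of 0.22) and Stmn4 and Mapt (0.81) lay within the bound in plus Dox cells, so their order is undecided. In minus Dox cells the order of Nes and Stmn3 (0.02) and of Stmn4 and Map2 (0.60) is undecided in the same way. All other gaps between tested neighbours were wider than the bound. Errors particular to a gene, such as reads at a locus shared with another row, are not covered by it.

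The promoter table made from RefSeq (build GRCm38.p6) held 6 of the 10 genes. The 250 bases before the start are shown for Nes and Map2, the called genes it holds, for Ina, an uncalled intermediate filament gene, and for Stmn3, an uncalled stathmin. They were chosen after the values were seen. Capitals mark each GC box, the letters GGGCGG or their reverse complement, the core of the sites that Sp factors are known to bind. Coordinates are those of GRCm38.p6 and each sequence runs 5′ to 3′ on the strand of the gene. Nes lies at chr3:87970843-87971092 (plus strand), Map2 at chr1:66175079-66175328 (plus strand), Ina at chr19:47014431-47014680 (plus strand) and Stmn3 at chr2:181314501-181314750 (minus strand).
Nes: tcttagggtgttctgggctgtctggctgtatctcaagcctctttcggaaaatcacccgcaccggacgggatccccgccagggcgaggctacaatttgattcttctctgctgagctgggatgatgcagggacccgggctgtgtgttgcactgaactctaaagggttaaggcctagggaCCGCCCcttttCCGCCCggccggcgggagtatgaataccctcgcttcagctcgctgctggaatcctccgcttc
Map2: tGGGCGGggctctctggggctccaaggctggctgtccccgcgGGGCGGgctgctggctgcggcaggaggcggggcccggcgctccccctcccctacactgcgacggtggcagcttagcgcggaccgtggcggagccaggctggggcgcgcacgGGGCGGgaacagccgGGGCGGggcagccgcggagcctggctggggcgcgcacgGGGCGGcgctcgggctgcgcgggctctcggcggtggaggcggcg
Ina: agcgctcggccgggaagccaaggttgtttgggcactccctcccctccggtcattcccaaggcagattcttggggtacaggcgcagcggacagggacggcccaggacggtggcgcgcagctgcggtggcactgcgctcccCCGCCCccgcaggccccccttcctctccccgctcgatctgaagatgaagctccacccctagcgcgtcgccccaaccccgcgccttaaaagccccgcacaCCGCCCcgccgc
Stmn3: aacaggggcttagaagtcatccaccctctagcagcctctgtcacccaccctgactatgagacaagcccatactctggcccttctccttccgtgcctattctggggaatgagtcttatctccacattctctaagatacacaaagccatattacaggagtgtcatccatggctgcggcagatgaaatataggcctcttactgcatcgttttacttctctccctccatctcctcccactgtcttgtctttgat

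The Map2 window, with 81.2% G and C bases, held 5 GC boxes, a number reached by 1.93% of the 32851 promoter windows. The Nes window (58.8% G and C) and the Ina window (70.8%) held 2 each, a number reached by 16.7% of windows, and the Stmn3 window (48.8%) held 0. Of the genes whose windows are not shown, Tubb3 also held 2, and Dcx, a microtubule binder like Map2, held 0 in each of its 2 windows. At least 1 GC box was found in 32.7% of windows. The windows differ in G and C content, whose part in these numbers was not tested. The other motifs searched on both strands were GGGTGTGG (the GT box, in 3.2% of windows), CTTTGAT (a TCF/LEF core, 3.21%), and the left and right parts of the REST element, TTCAGCACC (0.301%) and GGACAG (18.7%). None of the 4 windows held the GT box or the left part of the REST element; Stmn3 held 1 TCF/LEF core, and Map2 and Ina 1 GGACAG each. Matches of different motifs that overlap were each counted. A match describes letters in these windows and does not show binding.

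None of the nearest tested genes on either side of the called members was called in the same direction as its member. Beside Stmn4, Trim35 lay 32.9 kb before it and had 13.9 FPKM in plus Dox cells and 14.4 FPKM in minus Dox cells, and Dpysl2 lay 441 kb after it and had 3.07 FPKM in plus Dox cells and 3.57 FPKM in minus Dox cells; neither was called. Beside Nes, Crabp2, which encodes a retinoic acid-binding protein, lay 17.7 kb before it and rose, with 28.2 FPKM in plus Dox cells and 22.4 FPKM in minus Dox cells (q = 0.000609 in the authors' deposited table). Bcan, a proteoglycan gene of the brain, lay 7.08 kb after Nes and had 0.16 FPKM in plus Dox cells and 0.164 FPKM in minus Dox cells. Beside Map2, Unc80 had 0.308 FPKM in plus Dox cells and 0.515 FPKM in minus Dox cells and Gm8805 was below 1 FPKM, and neither was called. The 3 tested rows whose 2 group values lay nearest to those of Stmn4 on the log2 scale were H3f3a-ps2 (distance 0.245), SNORA19 (0.735, not called) and Sned1 (0.784). With 2 group values per gene this likeness says only that level and difference were close.

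**Figure D3:**
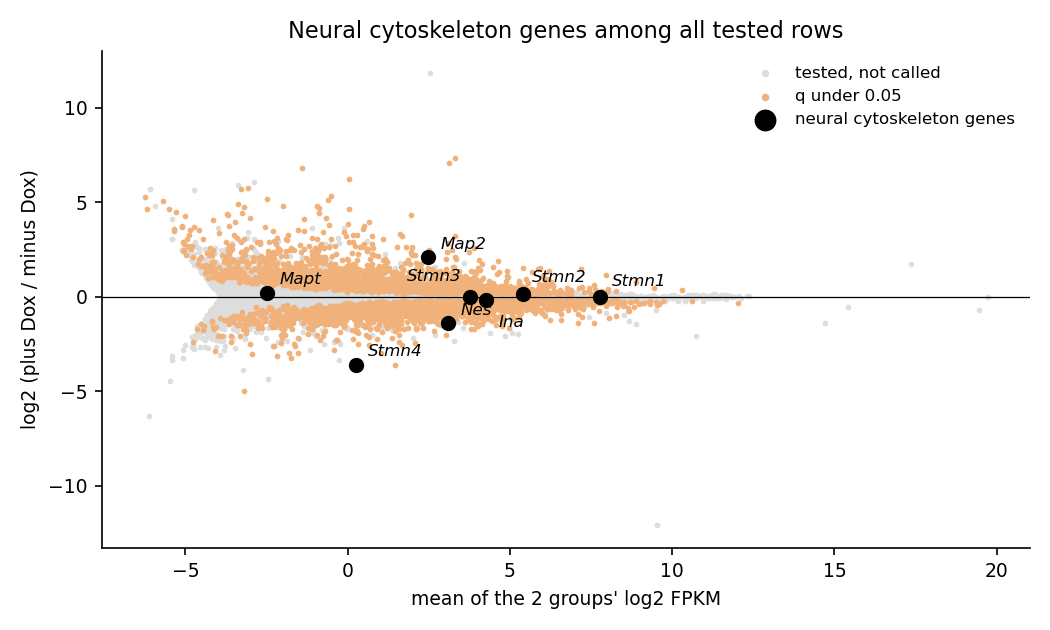
Each point is a tested row with both groups above 0, with the mean of its log2 FPKM values on the x axis and the log2 ratio of plus Dox over minus Dox on the y axis; orange points have q under 0.05 and black points are the 8 tested neural cytoskeleton genes. Stmn4 lies near the lower edge of the cloud at its level, whereas Stmn1, Stmn2, Stmn3 and Ina lie close to 0.

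The called genes among other tubulins were all lower. Of 16 tested, 8 fell, 0 rose and 8 were not called, that is 50% lower beside 12.7% of all tested rows, and the median log2 difference was -0.25. Of the 13 reaching 1 FPKM in a group, 8 fell, beside 16.8% lower among all tested rows at that level. Of the 8 falls, 1 was at least 2-fold. It was that of Tubb4a, a beta-tubulin abundant in the brain, with 4.07 FPKM in plus Dox cells and 16.7 FPKM in minus Dox cells (4.11-fold lower, log2 SE 0.08). Tuba1a, the main alpha-tubulin of young neurons, had 306 FPKM in plus Dox cells and 428 FPKM in minus Dox cells (1.4-fold lower). Tubb2b, another tubulin of developing neurons, had 36.8 FPKM in plus Dox cells and 48.8 FPKM in minus Dox cells, and Tubb2a 7.02 FPKM in plus Dox cells and 9.44 FPKM in minus Dox cells. All 4 had q of 6.13e-05 or below in the authors' deposited table. Tubb5 (683 FPKM in plus Dox cells and 780 FPKM in minus Dox cells) and the gamma-tubulin gene Tubg1 (28 FPKM in plus Dox cells and 26.6 FPKM in minus Dox cells) were not called. Tubulin genes are near-identical in coding sequence, so the split of reads between them is uncertain, and Tuba1b, listed at 0 in both groups with a status that marks too many fragments, was read as a failed estimate.

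Of 35 tested rows of other microtubule-associated proteins, 9 fell, 4 rose and 22 were not called, with a median log2 difference of -0.12. That is 25.7% lower and 11.4% higher, beside 12.7% and 10.5% of all tested rows. At 1 FPKM or more in a group, 9 of 32 fell and 3 rose, beside 16.8% and 11.5% of all rows at that level. Dclk1, a doublecortin-like kinase, had 0.625 FPKM in plus Dox cells and 2.15 FPKM in minus Dox cells (3.43-fold lower), and Map7d3 had 9.36 FPKM in plus Dox cells and 21 FPKM in minus Dox cells (2.24-fold lower). Dpysl3, which encodes a collapsin response mediator protein, rose to 13.6 FPKM in plus Dox cells, against 8.11 FPKM in minus Dox cells, and Clip4 to 2.15 FPKM in plus Dox cells, against 1.36 FPKM in minus Dox cells. None of the 4 rises was as large as 2-fold, against 4.25-fold for Map2. Mapre1 (62.3 FPKM in plus Dox cells and 65.2 FPKM in minus Dox cells) and Nde1 (48.6 FPKM in plus Dox cells and 44.1 FPKM in minus Dox cells) were not called.

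Other intermediate filament genes went both ways, with 6 lower, 5 higher and 5 not called of 16 tested, and a median log2 difference of 0.14. That is 37.5% lower and 31.2% higher, beside 12.7% and 10.5% of all tested rows. At 1 FPKM or more in a group, 6 of 14 fell and 5 rose, beside 16.8% and 11.5% of all rows at that level. Prph, the peripherin gene of peripheral neurons, had 0.833 FPKM in plus Dox cells and 2.52 FPKM in minus Dox cells (3.03-fold lower). The epithelial keratin gene Krt18 had 48 FPKM in plus Dox cells and 96.4 FPKM in minus Dox cells, and Krt7 had 0.856 FPKM in plus Dox cells and 1.86 FPKM in minus Dox cells. Vim, the vimentin gene, with which nestin co-polymerises, had 24.5 FPKM in plus Dox cells and 34.1 FPKM in minus Dox cells (1.39-fold lower). Lmna, which encodes lamins A and C of the nuclear envelope, rose to 20.7 FPKM in plus Dox cells, against 10.5 FPKM in minus Dox cells. The neurofilament genes Nefl (11.8 FPKM in plus Dox cells and 7.54 FPKM in minus Dox cells) and Nefh (4.83 FPKM in plus Dox cells and 3.21 FPKM in minus Dox cells) also rose, and Nefm (2.47 FPKM in plus Dox cells and 2.21 FPKM in minus Dox cells) was not called. Vim, Nefl and Nefh were named after their values were seen. Filament genes of neurons thus parted, with Nefl and Nefh higher with doxycycline, Prph lower, and Nefm and Ina not called. Nes and Vim were lower.

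Among microtubule motors and severing enzymes, 6 of 25 tested fell, 4 rose and 15 were not called (median log2 difference -0.07). That is 24% lower and 16% higher, beside 12.7% and 10.5% of all tested rows. Of the 23 reaching 1 FPKM in a group, 6 fell and 2 rose, beside 16.8% and 11.5% of all rows at that level. Kif1a, the kinesin of synaptic vesicle precursors, had 8.2 FPKM in plus Dox cells and 16.7 FPKM in minus Dox cells (2.04-fold lower), and the neuronal kinesin gene Kif5c had 5.12 FPKM in plus Dox cells and 7.38 FPKM in minus Dox cells. Kif3a, a kinesin of cilia and axons, rose to 7.2 FPKM in plus Dox cells, against 5.41 FPKM in minus Dox cells. Larger folds were seen for 2 rises below 1 FPKM, both named after their values were seen. Kif26b had 0.121 FPKM in plus Dox cells and 0.0246 FPKM in minus Dox cells (4.93-fold higher). Dync1i1 had 0.235 FPKM in plus Dox cells and 0.0841 FPKM in minus Dox cells (2.79-fold higher). Dync1i2, a dynein chain gene, had 49.2 FPKM in both groups.

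**Figure D4:**
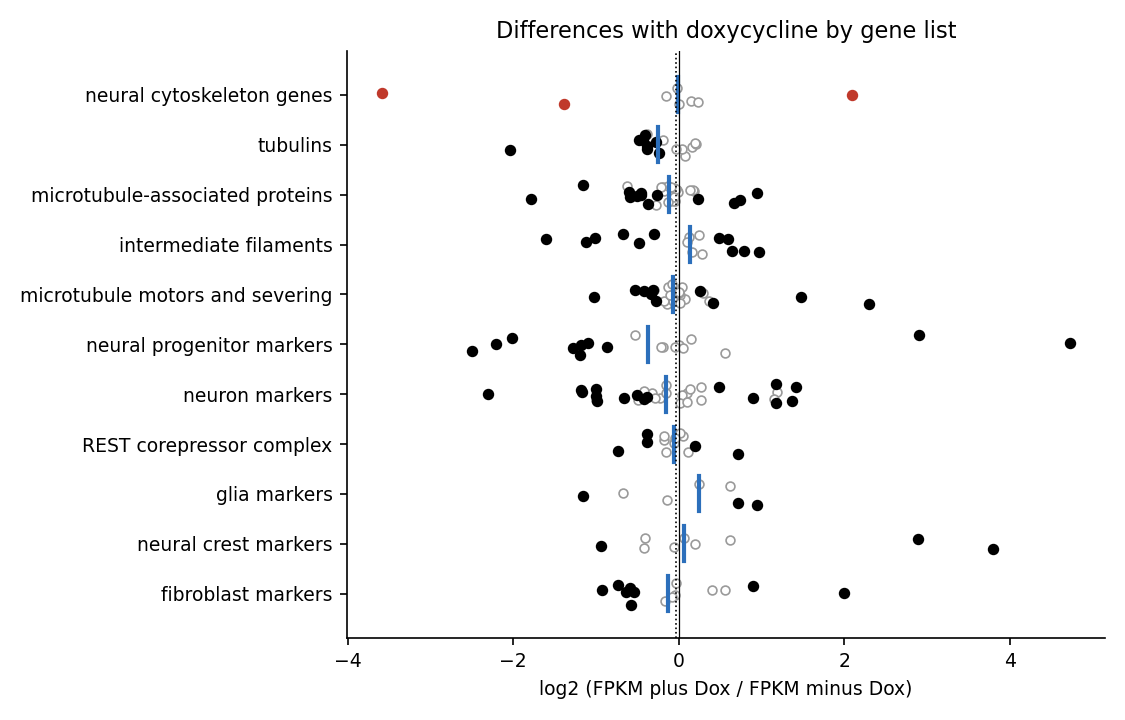
Log2 ratio of plus Dox over minus Dox FPKM for tested genes of each list, with filled points for q under 0.05, open points for uncalled genes, a blue bar at each list's median and a dotted line at the median of all tested rows (-0.03). The 8 neural cytoskeleton genes (top row, called ones in red) spread from -3.59 to 2.09, and the 8 called tubulins all lie below 0.

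The neural identity of the cells was checked with markers from lists that leave out the 10 genes. Of 18 tested neural progenitor markers, 8 fell, 2 rose and 8 were not called, with a median log2 difference of -0.37. That is 44.4% lower and 11.1% higher, beside 12.7% and 10.5% of all tested rows. At 1 FPKM or more in a group, 6 of 11 fell and 0 rose, beside 16.8% and 11.5% of all rows at that level. The summed level of the 18 was 138 FPKM in plus Dox cells and 190 FPKM in minus Dox cells. Zic2, left out after its values were seen, carried much of that difference. The other 17 summed to 115 FPKM in plus Dox cells and 139 FPKM in minus Dox cells. Fabp7, a lipid-binding protein gene of radial glia, had 0.521 FPKM in plus Dox cells and 2.4 FPKM in minus Dox cells (4.62-fold lower). Pax6, the eye and forebrain factor, had 0.26 FPKM in plus Dox cells and 1.05 FPKM in minus Dox cells. Msi2 (6.66 FPKM in plus Dox cells and 15.2 FPKM in minus Dox cells) and Zic2 (22.6 FPKM in plus Dox cells and 51.2 FPKM in minus Dox cells) fell as well. Sox2, shared by pluripotent and neural cells, had 60.6 FPKM in plus Dox cells and 60.8 FPKM in minus Dox cells, and Prom1 had 13.3 FPKM in plus Dox cells and 11.9 FPKM in minus Dox cells, neither called.

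Of 33 tested neuron markers, 14 stayed below 1 FPKM in both groups. Of the 33, 10 fell, 6 rose and 17 were not called (median log2 difference -0.16). That is 30.3% lower and 18.2% higher, beside 12.7% and 10.5% of all tested rows. At 1 FPKM or more in a group, 7 of 19 fell and 4 rose, beside 16.8% and 11.5% of all rows at that level. The sum of the 33 was 150 FPKM in plus Dox cells and 196 FPKM in minus Dox cells. That difference lay in Uchl1 (77.7 FPKM in plus Dox cells and 102 FPKM in minus Dox cells) and Gng3 (17.9 FPKM in plus Dox cells and 40.5 FPKM in minus Dox cells), both called lower and named after their values were seen. The other 31 markers summed to 54.5 FPKM in plus Dox cells and 54.2 FPKM in minus Dox cells. Since Uchl1 and Gng3 were left out for their large differences, near-equal sums follow from that choice. Calls among the other 31 went both ways. Sez6 had 0.357 FPKM in plus Dox cells and 1.76 FPKM in minus Dox cells (4.93-fold lower). Rbfox3, which encodes the neuronal antigen NeuN, rose to 1.89 FPKM in plus Dox cells, against 0.708 FPKM in minus Dox cells, Cplx2 to 1.36 FPKM in plus Dox cells, against 0.527 FPKM in minus Dox cells, and the sensory neuron factor gene Pou4f1 to 2.54 FPKM in plus Dox cells, against 1.12 FPKM in minus Dox cells. Gap43, a growth cone gene (9.31 FPKM in plus Dox cells and 8.43 FPKM in minus Dox cells), and Elavl2 (8.97 FPKM in plus Dox cells and 8.36 FPKM in minus Dox cells) were not called.

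The repressor REST silences many neuronal genes, Stmn2 among them, outside neurons. Rest fell to 13 FPKM in plus Dox cells, against 17.1 FPKM in minus Dox cells (1.31-fold lower, log2 SE 0.07, q = 4.02e-08 in the authors' deposited table). Stmn2 was not called, and its interval on the log2 difference ran from -0.01 to 0.30. Whether the level of Rest has a part in that of Stmn2 was not tested. Of the 13 tested genes of the REST complex and its phosphatases, 3 fell, 2 rose and 8 were not called. That is 23.1% lower and 15.4% higher, beside 12.7% and 10.5% of all tested rows. All 13 reached 1 FPKM in a group, and among all tested rows at that level 16.8% were lower and 11.5% higher. The phosphatase genes parted, with Ctdsp1 at 28.4 FPKM in plus Dox cells and 17.4 FPKM in minus Dox cells, a rise, and Ctdspl at 1.37 FPKM in plus Dox cells and 2.29 FPKM in minus Dox cells, a fall.

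Other cells that could carry these genes were examined too. Of 14 tested fibroblast markers, 6 fell, 2 rose and 6 were not called. That is 42.9% lower and 14.3% higher, beside 12.7% and 10.5% of all tested rows. At 1 FPKM or more in a group, 5 of 11 fell and 2 rose, beside 16.8% and 11.5% of all rows at that level. The sum of the 14 was 69.6 FPKM in plus Dox cells and 98.9 FPKM in minus Dox cells. That difference lay in Acta2 (9.92 FPKM in plus Dox cells and 18.9 FPKM in minus Dox cells) and Tagln (36.5 FPKM in plus Dox cells and 56.9 FPKM in minus Dox cells, named after its values were seen). The other 12 markers summed to 23.2 FPKM in plus Dox cells and 23.1 FPKM in minus Dox cells. Acta2 and Tagln were left out for their large differences, so near-equal sums follow from that choice. Among the other 12, Thy1, Dcn, Pdgfrb and Twist1 fell while Col1a1 and Col5a1 rose. Of the 6 falls 0 reached 2-fold, and the 1 call that did was the rise of Col1a1 (4.43 FPKM in plus Dox cells and 1.11 FPKM in minus Dox cells). Of 9 tested neural crest markers, 1 fell (Foxd3, 13.7 FPKM in plus Dox cells and 26.1 FPKM in minus Dox cells) and 2 rose (Tfap2a, 2.5 FPKM in plus Dox cells and 0.18 FPKM in minus Dox cells, and Pax3, 0.504 FPKM in plus Dox cells and 0.068 FPKM in minus Dox cells, the last named after its values were seen), with sums of 23.3 FPKM in plus Dox cells and 33.1 FPKM in minus Dox cells. Foxd3 made up most of either sum, and 5 of the 9 stayed below 1 FPKM in both groups. Whether Foxd3 RNA came from crest cells here was not tested. Without Foxd3, left out after its values were seen, the other 8 summed to 9.62 FPKM in plus Dox cells and 6.95 FPKM in minus Dox cells. Foxd3 was the 1 called fall of this list, so the opposite direction of these sums follows from that choice. Of 7 tested glia markers, 1 fell and 2 rose, with sums of 7.49 FPKM in plus Dox cells and 8.17 FPKM in minus Dox cells. These calls were 14.3% lower and 28.6% higher for glia markers, and 11.1% lower and 22.2% higher for crest markers. Over all tested rows the shares were 12.7% and 10.5%. In the last 3 lists no gene was listed at 0 in both groups, and the crest marker Sox10 and the glial marker Gfap stayed below 1 FPKM. The part of these cells in the differences of Stmn4, Nes and Map2 was not tested.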

How the data were processed

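Poly(A)-selected RNA of 6 libraries, 3 with and 3 without doxycycline, was sequenced, per the labels' protocols. The submitters' processing notes name build mm9 and the tools Cuffdiff, Cufflinks 2.0.2, TopHat2 2.0.8, Picard and Bowtie. For annotation, scaling and filters nothing was given in the sources used here. The authors deposited 1 FPKM value per group and their own test's log2 fold changes, statistics, p-values and q-values, per the file headers. No refit was possible, so the authors' calls (status OK and q under 0.05, a rule that matched every mark of significance) were used. Depth is unknown.

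The log2 ratio of the group FPKM values (no pseudocount) equalled the deposited one to within 1.31e-05 in 18284 rows. A two-sided normal p of the deposited statistic equalled the deposited p-value to within 2.84e-06, and the statistic was signed opposite to the ratio. The SE of a log2 ratio is its size over that of the statistic, and intervals use 1.96 SE; this rests on Cuffdiff's definition, not on values per library. Counting and SE steps were tested on simulated data. Its statistic was built as the log ratio over a set SE, so this checks the code and not Cuffdiff's definition. Starts were read as 0-based and written from 1, in mm9.

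The 10 genes and the 10 context lists (205 genes, 200 with a row) were chosen with earlier results of these data known. In each list, up to 4 called genes with the largest change at 1 FPKM or more and up to 2 uncalled ones with the highest level were eligible to be named, beside Sp5, Rest, the neighbours of called members and the 3 rows most like Stmn4. Lists were described by counts and medians, without a set test. Python 3.11.15, numpy 2.4.6, pandas 2.3.3, scipy 1.17.1 and matplotlib 3.10.9 were used.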

Additional observations from a re-analysis of the deposited data

How the results depend on the processing

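The 2 falls were counted under each of the 7 alternatives: q under 0.01, q under 0.1, at least 2-fold, 1 FPKM or more, rows that share no locus, recentring on the median of tested rows at 1 FPKM or more (-0.04 on the log2 scale), and members matched by exact symbol, the last added after seeing the data. The single rise became 0 without rows that share a locus and 0 with exact symbols only, because both leave out Map2 by construction. With a pseudocount of 1 FPKM the log2 difference was -1.93 for Stmn4, -1.24 for Nes and 1.75 for Map2. Of 60 list counts under alternatives, 20 moved by more than 1.5 times, most under the 2-fold minimum. No paired analysis was possible because the table holds 1 value per group, and leaving out replicates, count tests and other library scalings were not run for the same reason.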

Other observations

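The following genes were picked after their values were seen. The collapsin response mediators, tubulin-binding proteins of growing axons, parted by member. Dpysl3 rose to 13.6 FPKM in plus Dox cells, against 8.11 FPKM in minus Dox cells, and Dpysl4 to 0.67 FPKM in plus Dox cells, against 0.347 FPKM in minus Dox cells. Dpysl5 fell to 8.02 FPKM in plus Dox cells, against 12 FPKM in minus Dox cells, and Crmp1 to 19.5 FPKM in plus Dox cells, against 29.6 FPKM in minus Dox cells. Dpysl2, the nearest tested gene after Stmn4, was not called (q = 0.0596 in the authors' deposited table).

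The proneural factor gene Neurog1 and Hes5, a Notch-responsive repressor gene, went in opposite directions, both below 1 FPKM. Neurog1 had 0.564 FPKM in plus Dox cells and 0.0212 FPKM in minus Dox cells, a rise. Hes5 had 0.0526 FPKM in plus Dox cells and 0.298 FPKM in minus Dox cells, a fall.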
